A study of Mus musculus with 4 samples.

Results

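The ATF4 amino acid response genes are 39 genes known as targets or partners of the transcription factor ATF4, of 29872 genes on the array. They were chosen by name, from what is known of the response, but with earlier results of these data known. Every probe carrying an older or current symbol of a member was read. All 39 had a probe, and 36 of them were among the 15964 genes bright enough to be tested. They fall into 11 stress regulators (Atf4, Atf3, Atf5, Ddit3, Trib3, Chac1, Sesn2, Cebpb, Cebpg, Nupr1 and Ppp1r15a) and 7 genes of serine and proline synthesis (Phgdh, Psat1, Psph, Shmt2, Mthfd2, Aldh18a1 and Pycr1). A further 7 are amino acid transporters (Slc7a1, Slc7a5, Slc7a11, Slc3a2, Slc1a4, Slc1a5 and Slc38a2) and 9 are cytosolic tRNA synthetases (Cars, Gars, Aars, Nars, Sars, Wars, Mars, Eprs and Iars). The last 5 are other targets (Asns, Gpt2, Cth, Vldlr and Stc2).

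The cells were B cells taken from mouse spleen by magnetic sorting and kept in culture for 3 days. All of them, of both genotypes, were activated with anti-IgM (10 µg/mL), which crosslinks the B cell receptor, together with anti-CD40 (10 µg/mL), which replaces the signal of helper T cells, in serum-containing medium with added glutamine. One group came from C57BL/6 males (WT) and the other from males deficient in Ackr4 (Ackr4ko), a scavenging chemokine receptor, and the donors were 71 to 77 days old. The labels give neither the Ackr4 allele nor a cell type to which the deficiency is limited. Each of 2 independent experiments, with donors of its own, gave 1 Ackr4ko and 1 WT array, so n = 2 per genotype, and replicate 1 and replicate 2 stand for experiments 1 and 2.

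The targeted gene came first as a check of the labels. Both Ackr4 probes were dim, and 0 of 4 arrays had them well above background, so Ackr4 checks no label. The scanner files and the authors' value table place the genotypes the opposite way round: each column of the value table correlated best with the scan of the opposite genotype from its experiment (r = 0.9989 to 0.9999 over 16207 probes, against 0.9786 to 0.9858 with the scan under its own label). Ackr4ko-labelled and WT-labelled below mean labelled so by the scanner files. If the value table is right, every direction turns round, and the sizes and counts stay. The WT-labelled array of experiment 2 stood apart in quality, with 6.24% of its spots marked as outliers (1.79% to 2.12% on the others) and 42.2% of probes well above background (49.5% to 54.9%). With 2 arrays a group, 0.333 is the smallest p an exact two-sided permutation test could reach, so p-values come from limma fitted across all genes.

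ATF4 is the main effector of the integrated stress response. When uncharged tRNA, unfolded protein, haem shortage or double-stranded RNA activates an eIF2 kinase, phosphorylated eIF2 slows translation in general while translation of Atf4 mRNA increases, because of upstream open reading frames in its leader. ATF4 then binds composite C/EBP-ATF elements, with C/EBP family partners, and induces genes for amino acid synthesis, uptake and tRNA charging, and, under longer stress, regulators of cell death. Lymphocytes use the same genes when activation raises their demand for amino acids. Since ATF4 is controlled largely in translation, its mRNA level and the mRNA levels of its targets are separate measurements.

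The element was searched for in RefSeq promoter windows (GRCm38.p6, 250 bases before to 50 bases after a transcript start), which were matched for 33 of the 39 members in 37 windows (all but Slc7a5, Slc1a5, Cars, Nars, Wars and Cth). The letters TGATGNAA, on either strand, stood in a window of 12 of 33 members (36.4%) and of 1219 of 27025 genes in the table (4.51%). The longer form TGATGCAAT, which overlaps it, stood in 4 of 33 (12.1%) against 0.222%, and CCAAT, a box of many promoters, in 20 of 33 (60.6%) against 41.1%, both strands each. Since the members were picked as known targets of ATF4, these shares describe the choice of genes as much as the promoters. The sequences below surround the match in the 6 tested members with a match that differed most between genotypes. They run 5′ to 3′ along the gene, with the match, or its reverse complement, in capitals.
Asns, chr6:7693210-7693262, minus strand: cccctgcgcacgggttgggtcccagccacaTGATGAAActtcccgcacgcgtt
Atf3, chr1:191183406-191183473, minus strand: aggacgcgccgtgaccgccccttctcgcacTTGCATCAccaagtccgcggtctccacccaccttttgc
Chac1, chr2:119351019-119351086, plus strand: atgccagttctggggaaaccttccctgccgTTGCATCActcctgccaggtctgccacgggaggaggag
Trib3, chr2:152344028-152344057, minus strand: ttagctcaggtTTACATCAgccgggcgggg
Pycr1, chr11:120643814-120643881, minus strand: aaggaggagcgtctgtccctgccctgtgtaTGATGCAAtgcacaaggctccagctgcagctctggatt
Vldlr, chr19:27216790-27216857, plus strand: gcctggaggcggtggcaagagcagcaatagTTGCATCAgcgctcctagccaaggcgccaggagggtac

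The other 4 tested members with a match are shown because their signal differed by less than 2-fold on average between genotypes. They carry the same letters, and Aars holds a second match.
Aars, chr8:111033700-111033767, plus strand: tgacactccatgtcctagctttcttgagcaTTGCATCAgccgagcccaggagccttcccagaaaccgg
Gars, chr6:55037941-55038000, plus strand: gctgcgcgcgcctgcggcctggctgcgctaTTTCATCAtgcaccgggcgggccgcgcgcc
Iars, chr13:49682126-49682155, plus strand: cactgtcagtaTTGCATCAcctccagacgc
Slc1a4, chr11:20332699-20332728, minus strand: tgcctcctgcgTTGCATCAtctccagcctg
Counted from the transcript start, the match began at base -110 in Atf3, -193 in Chac1, -23 in Asns, -200 in Vldlr, -103 in Pycr1 and 15 in Trib3. It began at -112 and 10 in Aars, -30 in Gars, 8 in Iars and -4 in Slc1a4. Nupr1 and Slc7a11 held matches too but were too dim to be tested.

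As a group, the ATF4 response genes had more signal on the Ackr4ko-labelled arrays. Asns, Trib3 and Chac1 were at least 2-fold higher in both experiments. So were Atf3 and Pycr1, but these were tested only through the arrays on which they were bright, so they lend no support. Atf4 mRNA itself differed by 0.35 ± 0.34 (SE) on average. The signal is given as log2 of the processed signal, scaled to each array's 75th percentile. Of 36 tested members, 27 were higher in both experiments (75%; 33% of all tested genes), 1 was lower in both and 8 went opposite ways. The median difference over the members was 0.64, against 0.08 over all tested genes. In experiment 1 it was 0.35 (all genes -0.04) and 28 members were higher (77.8%; 44.6% of all genes). In experiment 2, which holds the array that stood apart, it was 0.89 (all genes 0.23) and 34 were higher (94.4%; 67.5% of all genes). These shares and medians describe genes that were chosen with earlier results of these data known. In bulk RNA, fewer cells of a type and less RNA per cell cannot be told apart.

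**Figure D1:**
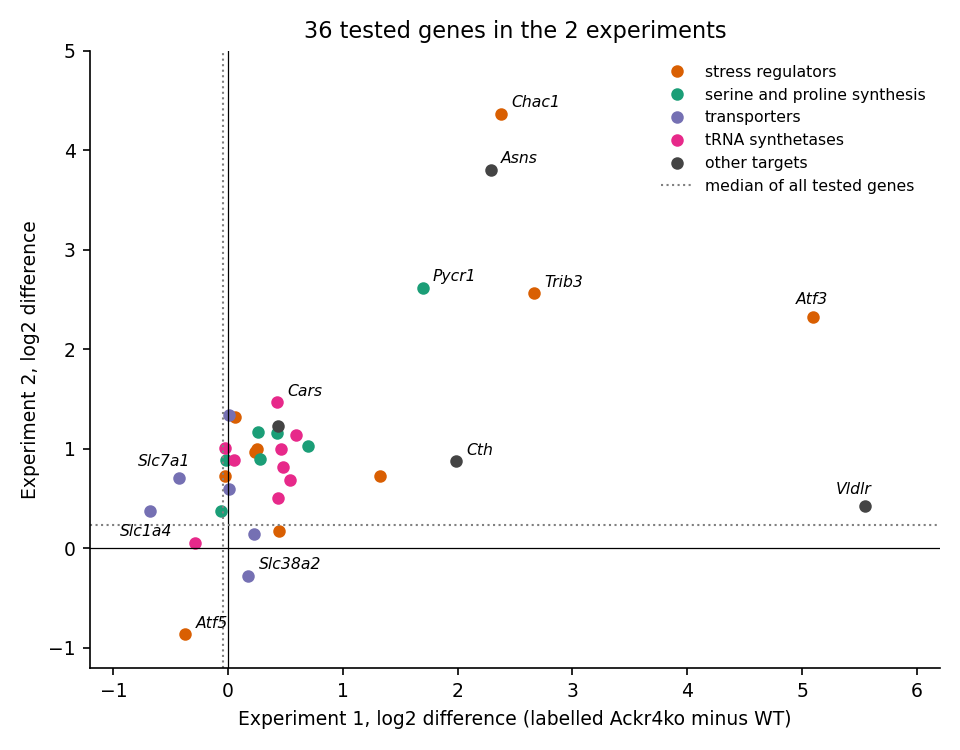
Difference in log2 signal (labelled Ackr4ko minus labelled WT) of each of the 36 tested members in experiment 1 (x axis) and experiment 2 (y axis), coloured by group; dotted lines mark the medians of all tested genes. Most points lie right of and above 0, 5 genes exceed a difference of 1 in both experiments, and Atf5 alone lies below 0 in both.

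Without a block for the experiment, 0 of the 36 members passed limma's Benjamini-Hochberg adjusted p of 0.05, as 0.0125% of all tested genes did. The members' adjusted p ran from 0.119 to 1. At an unadjusted p under 0.05 there were 12 members higher and 0 lower on the Ackr4ko-labelled arrays. Of all 15964 tested genes, 460 (2.88%) were higher and 272 lower at that level. The experiments are stated in the series description, so they pair the arrays. With the experiment as a block, limma called 7 members higher, Atf3, Trib3, Chac1, Pycr1, Asns, Cth and Vldlr, and 0 lower (2.04% of all tested genes were called higher and 1.3% lower). Atf3 and Pycr1 were well above background on neither WT-labelled array and entered the tests only through the arrays on which they were bright. Both are also among the 12 above, so they lend support to neither count. Of the 34 other members 5 were called, and of the 30 well above background on every array 3 were (Trib3, Asns and Cth). That fit has 1 residual degree of freedom and gives every gene the same standard error, 0.348. Its variance is pooled over all genes (infinite prior degrees of freedom). A gene's own disagreement between the experiments therefore does not enter its p with the block, which does not measure the spread of that gene. After quantile normalization the fit with the block called 0 members and 0 genes in all. Leaving out WT replicate 2 from the fit without a block gave 5 calls (Atf3, Trib3, Chac1, Asns and Vldlr; 0.764% of all tested genes were called), and leaving out WT replicate 1 gave 3 (Trib3, Chac1 and Asns; 0.15%). In these fits the spread comes from the Ackr4ko-labelled pair, and the lone WT-labelled array is assumed to vary like it.

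At least 2-fold higher in both experiments were 5 members, Atf3, Trib3, Chac1, Pycr1 and Asns, and 0 were at least 2-fold lower in both (1.28% and 0.514% of all tested genes). In experiment 1 alone 8 members were at least 2-fold higher and 0 lower (3.08% and 1.56% of all tested genes). In experiment 2 alone 16 were at least 2-fold higher and 0 lower (6.08% and 3.98%). Of the 5, Trib3 and Asns were well above background on all 4 arrays. Atf3 and Pycr1, tested only through the arrays on which they were bright, lend no support to this count either.

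**Figure D2:**
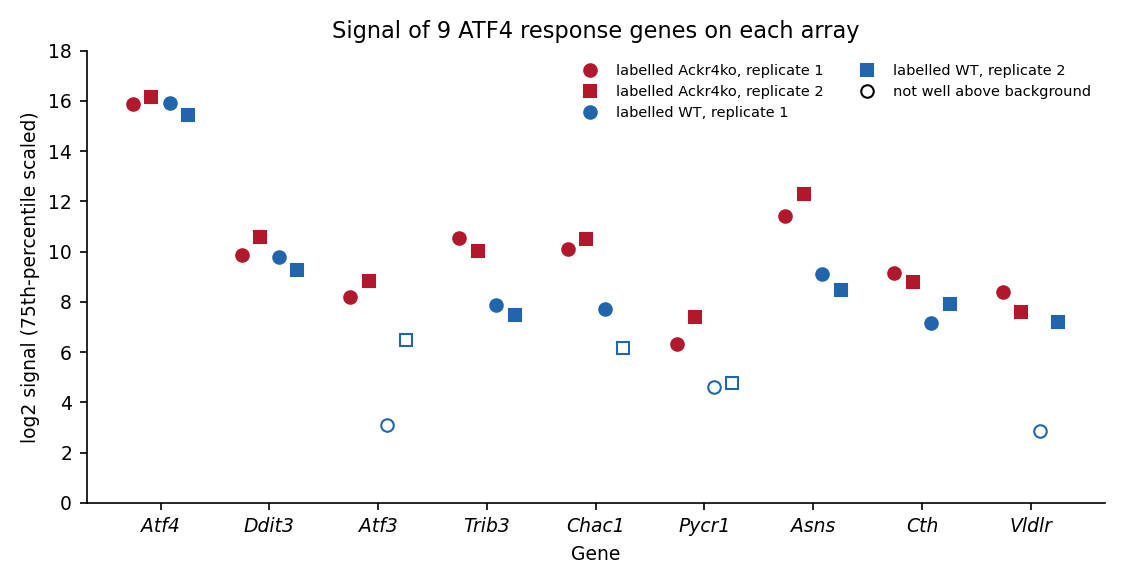
Signal of 9 members on each array (y axis, log2, scaled to the 75th percentile); filled symbols are probes well above background, open symbols are not, red is labelled Ackr4ko and blue labelled WT, circles are experiment 1 and squares experiment 2. Red symbols lie above blue ones in both experiments for all but Atf4, whose 4 values lie between 15.43 and 16.15, and for Ddit3 and Vldlr the gap is small in 1 experiment.

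Among the stress regulators, 8 of the 10 tested were higher in both experiments on the Ackr4ko-labelled arrays, with a median difference of 0.66. Atf4 gave log2 signals of 15.88 and 16.15 on the Ackr4ko-labelled arrays, replicates 1 and 2, and 15.90 and 15.43 on the WT-labelled arrays. The groups overlapped, and the difference was -0.03 in experiment 1, 0.73 in experiment 2 and 0.35 ± 0.34 (SE) on average. A second Atf4 probe gave 0.01 and 0.93.

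Trib3, a pseudokinase that ATF4 and CHOP induce and that restrains ATF4 in return, gave 10.53 and 10.04 on the Ackr4ko-labelled arrays and 7.87 and 7.48 on the WT-labelled arrays. The groups lay apart by over 2 log2 units on every array, and the mean difference was 2.61 ± 0.35 (limma adjusted p = 0.119, with the block 2.21e-11). Its probe lies on chromosome 2 at 152163161 to 152163220 (mm9). Chac1, which breaks down glutathione and is a late target of the ATF4 and CHOP branch, gave 10.11 and 10.52 against 7.73 and 6.15. The lowest of these, on WT replicate 2, was not well above background, which makes the difference in experiment 2 at least 20.7-fold in this scaling. With normexp background correction the log2 difference in experiment 2 was 3.26. The mean difference of Chac1 was 3.37 ± 0.51 (limma adjusted p = 0.151, with the block 7.83e-19), with the probe on chromosome 2 at 119179990 to 119180049.

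Atf3, a stress-induced repressor and partner of other bZIP factors, gave 8.18 and 8.83 on the Ackr4ko-labelled arrays, and 3.09 and 6.50 on the WT-labelled arrays. Both of the latter were not well above background, and they differed from each other by 3.41. Its signal was at least 8.57-fold brighter on the Ackr4ko-labelled arrays, a bound set, on each dim array, against the probe's own signal or that array's lowest signal well above background, whichever was higher. By experiment the bound was 14.6-fold and 5.02-fold. Such bounds, here and for the other genes, hold only for this background subtraction and scaling. With normexp background correction the log2 differences of Atf3 in experiments 1 and 2 were 1.95 and 1.45. The fitted difference was 3.71 ± 0.89 (limma adjusted p = 0.418, with the block 4.51e-23; probe on chromosome 1 at 192994547 to 192994606). It was 1.70 with normexp background correction, 2.01 without WT replicate 1 and 5.42 without WT replicate 2.

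Atf5, a relative of ATF4 that is controlled in translation in the same way, was the 1 tested member lower in both experiments. Its values were 10.90 and 9.84 on the Ackr4ko-labelled arrays and 11.27 and 10.70 on the WT-labelled arrays, and the groups overlapped. The mean difference, -0.62 ± 0.43, did not pass the test (limma adjusted p = 1.00, with the block 0.583). Cebpb, a C/EBP partner of ATF4, gave 7.56 and 6.85 against 6.24 and 6.12, the last not well above background. Its groups did not overlap, with a mean difference of 1.02 ± 0.36 (limma adjusted p = 0.868, with the block 0.0808).

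Ddit3, which encodes CHOP, gave 9.86 and 10.58 on the Ackr4ko-labelled arrays, and 9.79 and 9.26 on the WT-labelled arrays. Nearly all of the gap was in experiment 2, with 0.06 in experiment 1 and 1.32 in experiment 2. Cebpg, another C/EBP partner, showed the same order of experiments, with 0.23 and 0.97, as did Ppp1r15a (GADD34), the phosphatase subunit that removes phosphate from eIF2, with 0.25 and 1.00. Sesn2, a leucine sensor that restrains mTORC1, gave 0.45 and 0.17. Nupr1, a stress-induced chromatin cofactor, passed the background on 1 array and was not tested.

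In serine and proline synthesis, 5 of 7 genes were higher in both experiments on the Ackr4ko-labelled arrays and 2 went opposite ways, with medians of 0.28 in experiment 1 and 1.03 in experiment 2. Pycr1, which makes the last step to proline in mitochondria, gave 6.31 and 7.40 on the Ackr4ko-labelled arrays and 4.62 and 4.78 on the WT-labelled arrays, where it was not well above background on either array. It was at least 3.09-fold brighter on the Ackr4ko-labelled arrays. The fitted difference was 2.16 ± 0.41 (limma adjusted p = 0.237, with the block 1.2e-07; chromosome 11, 120501179 to 120501238). A second Pycr1 probe, well above background on 1 array only, gave differences of 0.41 and 0.44, so the size rests on 1 probe, and with normexp background correction the difference was 0.81 and was not called with the block (adjusted p = 0.126).

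Aldh18a1, which makes the first dedicated step to proline, gave 9.33 and 8.96 on the Ackr4ko-labelled arrays and 8.64 and 7.93 on the WT-labelled arrays. These groups did not overlap, and the mean difference was 0.86 ± 0.37 (limma adjusted p = 1.00, with the block 0.223). Psat1, the aminotransferase of the serine pathway, gave 12.95 and 13.94 against 12.53 and 12.78, a difference of 0.79 ± 0.40. Mthfd2, the mitochondrial folate enzyme that proliferating cells use, gave 0.26 in experiment 1 and 1.17 in experiment 2, and Shmt2, which splits serine into glycine and a one-carbon unit, gave 0.28 and 0.89.

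Phgdh, the first enzyme of serine synthesis, gave 13.84 and 14.85 on the Ackr4ko-labelled arrays and 13.86 and 13.97 on the WT-labelled arrays. Its difference was -0.02 in experiment 1 and 0.89 in experiment 2, and its other 2 probes showed the same split. Psph, the phosphatase that ends the pathway, gave 11.90 and 12.39 against 11.97 and 12.01, with differences of -0.07 and 0.38. The genes of serine synthesis thus differed mainly in experiment 2, while Pycr1 and Aldh18a1 differed in both.

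The transporters showed the smallest shift of the 5 groups in these data, with a median difference of 0.16, against 0.08 over all genes. Of the 6 tested, 3 were higher in both experiments, 0 were lower in both, and none reached 2-fold in both. Slc7a5, the light chain of the large neutral amino acid carrier LAT1, gave 8.25 and 8.34 on the Ackr4ko-labelled arrays and 8.24 and 6.99 on the WT-labelled arrays. It was level in experiment 1 and at least 2.54-fold brighter in experiment 2, where the WT-labelled array was not well above background. Slc3a2, the heavy chain that brings LAT1 to the membrane, gave 12.67 and 12.79 against 12.66 and 12.19, with the same pattern at a smaller size.

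Slc1a5, a carrier of glutamine and other neutral amino acids, gave 12.82 and 11.88 on the Ackr4ko-labelled arrays and 12.60 and 11.74 on the WT-labelled arrays. These 4 values followed the experiment rather than the genotype. Slc38a2 (SNAT2), which adapts to amino acid supply, did likewise, with 12.85 and 11.87 against 12.68 and 12.14.

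Slc7a1, the cationic amino acid carrier, gave 12.43 and 12.50 on the Ackr4ko-labelled arrays and 12.86 and 11.80 on the WT-labelled arrays. Slc1a4, a carrier of serine, alanine and cysteine, gave 10.25 and 10.76 against 10.94 and 10.39. Both were lower in experiment 1 and higher in experiment 2. Mean differences were 0.14 for Slc7a1, -0.16 for Slc1a4 and -0.05 for Slc38a2, and with normalization to the array median Slc1a4 and Slc38a2 turned to 0.03 and 0.13. Slc7a11, the cystine carrier that glutathione synthesis depends on, was well above background on 0 of 4 arrays and was not tested.

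The tRNA synthetases charge tRNAs with their amino acid, and all 9 were well above background on every array. On the Ackr4ko-labelled arrays 7 of 9 were higher in both experiments and 0 lower in both, with a median difference of 0.61. In size they stayed below 2-fold on average, and none was called with or without the block. Cars, for cysteine, gave 12.25 and 12.91 on the Ackr4ko-labelled arrays and 11.83 and 11.44 on the WT-labelled arrays. The groups did not overlap, with a difference of 0.95 ± 0.37 (limma adjusted p = 0.969, with the block 0.134; called under normexp background correction with the block).

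Iars, for isoleucine, gave 12.41 and 12.43 against 11.81 and 11.29, a difference of 0.87 ± 0.34. Mars, for methionine, gave 11.42 and 11.78 against 10.97 and 10.78, a difference of 0.73 ± 0.33. In both genes each Ackr4ko-labelled array was above each WT-labelled array. The share of all tested genes whose groups do not overlap was not counted, here or for the other genes described so. Sars, for serine, differed by 0.53 and 0.69 in experiments 1 and 2, Nars, for asparagine, by 0.48 and 0.82, and Eprs, for glutamate and proline, by 0.44 and 0.51.

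Gars, for glycine, and Aars, for alanine, showed their gap in experiment 2. Gars gave 14.88 and 15.58 on the Ackr4ko-labelled arrays and 14.83 and 14.69 on the WT-labelled arrays, with differences of 0.05 and 0.89. Aars differed by -0.03 and 1.01. Wars, for tryptophan, which interferon is also known to induce, gave 12.56 and 12.24 against 12.85 and 12.18. Its groups overlapped, with a mean difference of -0.11 that turned to 0.07 with normalization to the array median.

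The remaining targets, with 4 of 5 tested, were all higher in both experiments on the Ackr4ko-labelled arrays. Asns, asparagine synthetase and the classic readout of the amino acid response, gave 11.41 and 12.29 on the Ackr4ko-labelled arrays and 9.12 and 8.48 on the WT-labelled arrays. The groups lay over 2 log2 units apart, and the difference was 3.05 ± 0.41 (limma adjusted p = 0.119, with the block 1.89e-15). Its probe lies on chromosome 6 at 7625171 to 7625228 (mm9). Cth, cystathionine gamma-lyase, which makes cysteine from methionine-derived sulphur, gave 9.15 and 8.81 against 7.16 and 7.93. These did not overlap either, with a difference of 1.43 ± 0.38 (limma adjusted p = 0.540, with the block 0.00232), and a second Cth probe gave 2.09 and 0.96 in experiments 1 and 2.

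Vldlr, a lipoprotein receptor, gave 8.39 and 7.61 on the Ackr4ko-labelled arrays, and 2.85 and 7.19 on the WT-labelled arrays. The gap lay in experiment 1, where the WT-labelled array was not well above background and the difference was at least 16.9-fold in this scaling. With normexp background correction the log2 difference in experiment 1 was 2.30. In the main scaling the difference in experiment 2 was 0.43, and the mean, 2.99 ± 1.11, had a limma adjusted p of 0.914 (with the block 7.72e-15). A second Vldlr probe was not well above background on any array. Gpt2, a mitochondrial alanine aminotransferase, gave 7.78 and 8.47 against 7.35 and 7.24, a difference of 0.83 ± 0.36 (with the block adjusted p = 0.253). Stc2, a secreted glycoprotein, was well above background on 1 array and was not tested.

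Within a genotype, the members differed between experiments in opposite senses. From experiment 1 to experiment 2 the median member was 0.21 higher on the Ackr4ko-labelled arrays (all genes 0.13), with 23 of 36 higher. On the WT-labelled arrays it was 0.43 lower (all genes -0.08), with 10 of 36 higher. The larger differences of experiment 2 thus had a part from each genotype, and the larger of these lay in the WT-labelled arrays, one of which is the array that stood apart. The part of array quality in it was not tested.

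Set beside the promoter sequences printed above, the tested members with and without TGATGNAA in the window divided as follows. Of 10 with a match, 6 were called with the block (Atf3, Trib3, Chac1, Pycr1, Asns and Vldlr) and the median difference was 2.39, from -0.16 for Slc1a4 to 3.71 for Atf3. Of 20 without one, 0 were called (Cth is not among the 30) and the median was 0.59, from -0.62 for Atf5 to 1.02 for Cebpb. These figures rest in part on differences against signals not well above background. Over members well above background on all 4 arrays, a restriction made after seeing the data, 2 of 6 with a match were called (Trib3 and Asns) and the medians were 0.68 with a match and 0.59 over 19 members without. A match is a run of letters in a window and is described here without a test.

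**Figure D3:**
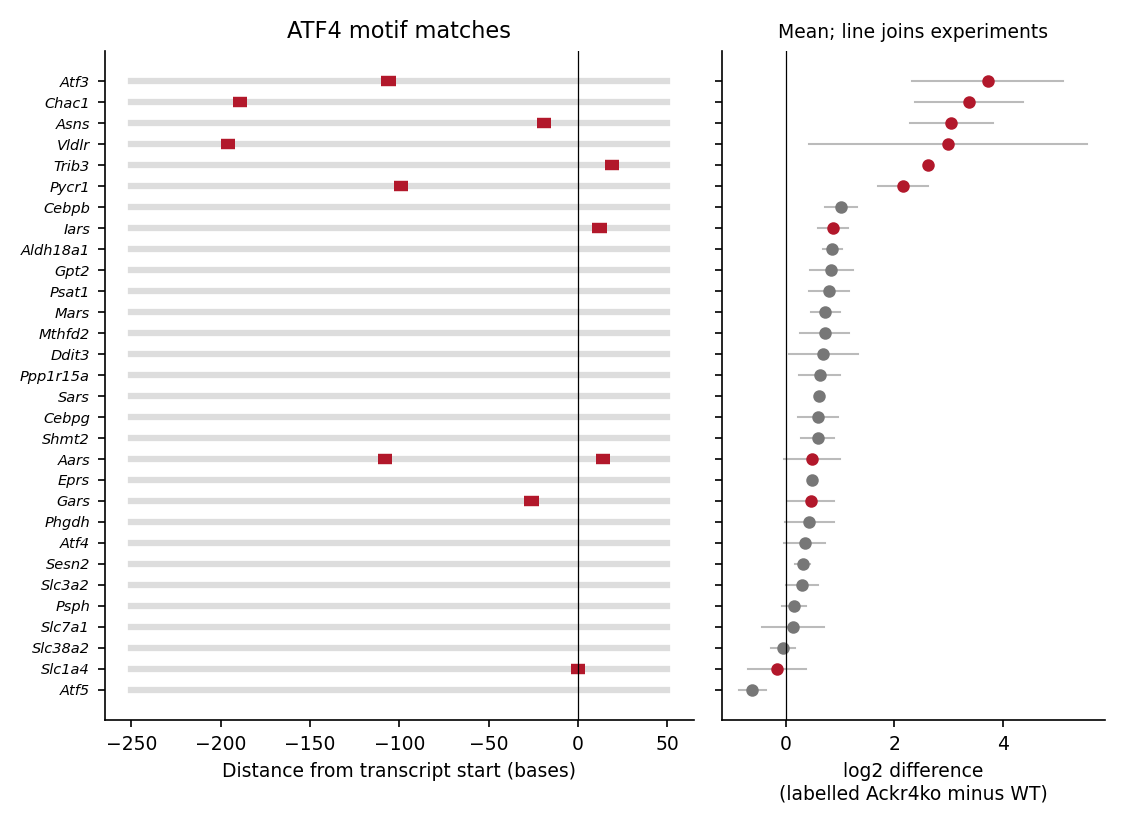
Left, windows of the 30 tested members with a promoter entry, from 250 bases before to 50 after the transcript start, with matches to TGATGNAA in red; right, the mean log2 difference (labelled Ackr4ko minus labelled WT, points, red with a match) and a line joining the values of experiments 1 and 2. The 6 members with the largest means all hold a match (4 of them, Atf3, Chac1, Vldlr and Pycr1, were not well above background on every array), and Iars, Aars, Gars and Slc1a4 hold one at differences of 0.87 or less.

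The wider pathway was read through 7 lists. The eIF2 kinases, eIF2 and eIF2B subunits, upstream of ATF4, were all measured (15 of 15), and 4 were higher in both experiments, 3 lower in both and 0 called with the block. Their median difference was 0.13. Those with the smallest p were Eif2s3x, the gamma subunit of eIF2, at 0.76 ± 0.37, and Eif2ak2 (PKR), the kinase that senses double-stranded RNA, at -0.83 ± 0.45. Chaperones and other ER genes of the ATF6 and XBP1 arms of the unfolded protein response showed a median of 0.05 over 19 genes, with 6 higher and 6 lower in both experiments and 0 called. The smallest p there were those of Pdia4 (-0.74 ± 0.34) and Dnajb9 (-0.47 ± 0.32).

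Further ATF4 targets, genes outside the 39, gave 12 tested of 15, with 7 higher and 1 lower in both experiments and a median of 0.37. With the block 3 of them were called higher and 0 lower (2.04% and 1.3% of all tested genes). Slc6a9, the glycine carrier GlyT1, gave 9.18 and 8.08 on the Ackr4ko-labelled arrays, and 6.53 and 4.61 on the WT-labelled arrays, where 1 of 2 was well above background. Its difference was 3.06 ± 0.62 (limma adjusted p = 0.266, with the block 1.42e-15).

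Ero1l, an ER oxidase, gave 10.31 and 10.06 against 7.91 and 8.98, with a difference of 1.74 ± 0.41 (with the block adjusted p = 5.36e-05). Eif4ebp1, which restrains cap-dependent translation, gave 13.85 and 14.67 against 12.31 and 13.32, a difference of 1.45 ± 0.45 (with the block adjusted p = 0.00193). All 3 were at least 2-fold higher in both experiments. Gdf15, Fgf21 and Aldh1l2 were well above background on no array (0 of 4).

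The synthetases outside the 39 were measured too. Of 11 other cytosolic ones, 9 were higher and 0 lower in both experiments, with a median of 0.28, and 0 were called. Tars (0.51 ± 0.35) and Lars (0.45 ± 0.33) had the smallest p. Of 16 tested mitochondrial ones, 8 were higher and 2 lower in both, with a median of 0.18 and 0 called, and Aars2 (0.60 ± 0.33) had the smallest p. The medians of these lists lay between that of the 9 members and that of all genes.

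Among 18 other enzymes of serine, one-carbon, proline and glutamate metabolism, 5 were higher and 1 lower in both experiments, and the median was 0.21. With the block 1 was called higher (2.04% of all tested genes were). This was Bcat1, the cytosolic branched-chain aminotransferase, at 8.87 and 10.10 on the Ackr4ko-labelled arrays and 7.28 and 7.76 on the WT-labelled arrays. Its difference was 1.96 ± 0.45 (limma adjusted p = 0.371, with the block 2.38e-06). Among 10 other amino acid transporters 3 were higher and 4 lower in both experiments, and the median was -0.15. The 1 called higher with the block (2.04% of all tested genes were) was Slc7a3, a cationic amino acid carrier. It gave 7.84 and 6.52 against 5.40 and 4.78, with 1 of 2 WT-labelled arrays well above background and a difference of 2.09 ± 0.47 (limma adjusted p = 0.366, with the block 3.58e-07). Slc16a10, an aromatic amino acid carrier, named after its value was seen, had the largest difference the other way, -1.02 ± 0.41 (limma adjusted p = 0.985, with the block 0.0824).

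**Figure D4:**
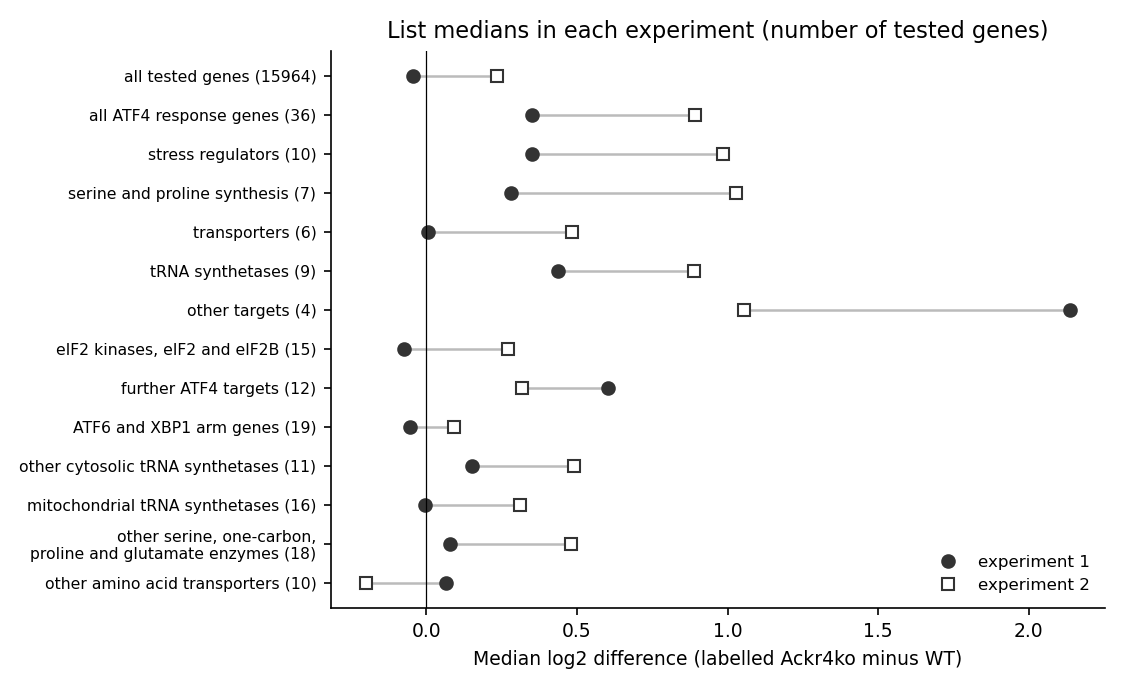
Median log2 difference (labelled Ackr4ko minus labelled WT, x axis) of all tested genes, of the members and their 5 groups, and of the 7 pathway lists, in experiment 1 (filled circles) and experiment 2 (open squares); the number of tested genes is in brackets. The eIF2 and ER lists lie close to all genes in both experiments, and the other targets lie farthest right in both.

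The cells carried the markers of B cells. All 7 B cell markers, among them Cd79a, Cd79b, Ms4a1 and Pax5, were well above background on all 4 arrays. Their summed linear signal was 478700 and 399900 on the Ackr4ko-labelled arrays and 546200 and 501800 on the WT-labelled arrays, so it was lower on the former in both experiments. The sum rests mainly on the brightest markers. By marker, the median difference was -0.22, 4 of 7 were higher in experiment 1 and 1 in experiment 2, and 2 were lower in both. The 4 plasma cell markers had a median of -0.30 and no call.

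Of 7 dendritic cell markers, 5 were tested, and 4 of them were higher in both experiments on the Ackr4ko-labelled arrays, with a median of 1.07. Batf3 (at least 2.59-fold) and Fscn1 (at least 2.40-fold) were called with the block. Both were well above background on 0 WT-labelled arrays and entered the tests only through the arrays on which they were bright. Their calls therefore lend no support. Itgax and Xcr1 were well above background on 0 arrays. The list's summed signal was 62750 and 75370 on the Ackr4ko-labelled arrays and 64500 and 62900 on the WT-labelled arrays. That sum rests mainly on the brightest marker, Siglech, whose mean difference was -0.0086, so it says little of the others. Flt3 (1.07) and Zbtb46 (0.995) were well above background on all 4 arrays and higher in both experiments. Neither was called with the block (limma adjusted p = 0.0597 and 0.0983). Batf3, Fscn1, Flt3 and Zbtb46 moved in the same sense as the ATF4 response genes, and their part in the result was not tested.

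Among the T cell markers, Cd3d, Cd3e, Cd3g and Cd4 were well above background on all 4 arrays, and Cd8a on 0 arrays. Cd5, which B cells also carry, was lower with the block (-1.15 ± 0.35, adjusted p = 0.0324). The summed signal of the 6 tested, Cd5 included, was 4782 and 5645 on the Ackr4ko-labelled arrays and 6134 and 7501 on the WT-labelled arrays. By marker, 2 were higher and 2 lower in both experiments, with a median difference of 0.04. The macrophage and monocyte list had a median of -0.29, with 1 marker higher and 2 lower in both experiments. Adgre1, Csf1r, Cd68, Mpeg1 and Itgam were well above background on all 4 arrays, and Lyz2 and Cd14 on 0 arrays. The neutrophil list had 2 of 5 tested, the NK list 1 of 4 and the erythroid list 0 of 4, with 0 calls among them.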

How the data were processed

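Total RNA (50 ng per sample) was labelled with Cy3 and hybridised to 1-colour Agilent arrays, per the labels' protocols. The deposited scanner files were made, per the submitters' processing notes, with Agilent Feature Extraction (version 10.7.3.1); they hold spot intensity, already background-subtracted in the processed signal, with spot flags; probe positions are on mm9. The authors' value table holds normalized intensity, and how it was made is not given in the sources used here. All 4 arrays lay on 1 slide.

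From the processed signal, log2 values were scaled to each array's 75th percentile; controls and outlier spots were left out and 4 spots per probe averaged. Probes entered the tests (20862 of 39429) if 2 or more of the 4 arrays had at least 50% of the probe's spots well above background, and a gene was its brightest tested probe. Of the 51 member probes 45 were tested. Names came from a RefSeq gene table for 28328 probes by accession, 317 by another accession, 3152 by symbol and 224 by synonym; 7408 kept the array's name. The genotypes were compared in R 4.3.3 by limma, version 3.58.1 (two-sided, Benjamini-Hochberg over 15964 genes), with no block and with the experiment as a block; same-experiment arrays deviated together (r = 0.421), and the pairing comes from the series description. Genes with values on every array are those called, those at least 2-fold different in both experiments, and the largest and smallest differences in each group; pathway genes are those called or with the smallest p. One pathway gene falling under it is not reported here. The members and lists were chosen with earlier results of these data known.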

Additional observations from a re-analysis of the deposited data

How the results depend on the processing

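The count of members called, 0 without a block, became 6 with normalization to the array median (which also moved the median of all genes to 0.27 and called 188 genes), 3 with normexp background correction (20 genes in all) and 7 with the experiment as a replicate block (532 genes). Both of the following combinations were chosen after seeing the data: normexp correction with the block called 7 (347 genes) and quantile normalization with the block called 0 (0 genes). Leaving out 1 array gave 0 to 5 (1 to 122 genes). Quantile normalization, either filter on dim probes, averaged probes and the value table called 0. The cause of these changes was not tested. The count of members at least 2-fold different in both experiments was 5 (all tested genes: 286 of 15964). It was 7 with normalization to the array median (all genes: 322) and 4 with normexp background correction (all genes: 116). When only probes above background on all 4 arrays were used, which leaves 30 members, it was 2 (all genes: 138 of 12801). The count over all genes thus changed with the setting too. It has no value with an array left out. Higher in both experiments were 27 or 28 members under each of the 4 scalings, against 29.1% to 40.1% of all genes.

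With the value table read by its own labels, every median turned round: to -0.55 for the members, -0.58 for stress regulators, -0.63 for serine and proline synthesis, -0.075 for transporters, -0.54 for tRNA synthetases and -1.997 for other targets. So did Asns (-2.95), Atf3 (-3.56), Chac1 (-3.28), Pycr1 (-2.05) and Trib3 (-2.55). The median of the other targets, 2.21, was 1.22 with normexp correction and 1.43 with either filter on dim probes, and 0.97 (without WT replicate 1) to 2.27 with an array left out. That of the transporters ran from -0.28 (without WT replicate 2) to 0.57 (without WT replicate 1). The medians of the members and of the other 3 groups kept their sign under all other alternatives, as did the 5 genes, though not their size: with an array left out the medians ran from 0.45 to 0.82 for the members, 0.53 to 1.02 for stress regulators, 0.30 to 0.94 for serine and proline synthesis (lowest without Ackr4ko replicate 2) and 0.40 to 0.82 for tRNA synthetases.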
